A study of Mus musculus with 5 samples.

Results

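Bulk RNA sequencing of the right brain hemisphere was used to describe 7 Fc receptor genes in GL261-bearing mice, out of 55573 genes counted. The genes were Fcrls, Fcgr1, Fcgr2b, Fcgr3, Fcgr4, Fcer1g and Fcgrt, and all 7 were found in the count tables and passed the filter on low counts. They were chosen by gene family, with earlier results of the UMBO against vehicle contrast known, so their differences in that contrast are given as a description and without a test.

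The series held 5 libraries, each from a different mouse. All mice were C57BL/6 females of 7 to 8 weeks at tumor inoculation. GL261, a mouse glioma line, had been transduced with a luciferase/mKate2 vector and was placed in the right caudate nucleus-putamen. Only mice above a bioluminescence cutoff were included. The paper states that the tumors of the mice in this experiment were similar in size by bioluminescence imaging. In the 2 UMBO libraries, the mice had received ultrasound-mediated blood-brain barrier opening, in which low-intensity pulsed ultrasound is applied together with intravenous microbubbles. In the 3 vehicle libraries, the mice had received inVivoPure pH 6.5 Dilution Buffer. Both groups were treated on days 21 and 24 and killed 24 h after the last session. No checkpoint antibody was named for either group of this experiment, and whether vehicle mice received microbubbles is not given in the sources used here. The model is 1 tumor line in 1 mouse strain, and the hemisphere was sequenced whole, so the share of tumor in each library is not known.

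Fc receptors bind the constant part of antibodies and tell phagocytes, mast cells and natural killer cells that a target has been coated. Activating receptors such as Fcgr1, Fcgr3 and Fcgr4 need the common gamma chain Fcer1g, whose immunoreceptor tyrosine-based activation motif (ITAM) recruits the kinase Syk. Fcgr2b is the inhibitory receptor, and its own inhibitory motif (ITIM) recruits the phosphatases Inpp5d and Ptpn6. Fcgrt, the neonatal Fc receptor, pairs with B2m and carries antibody across or back out of cells, including brain endothelium. Fcrls is related to Fc receptors in sequence and is widely used as a marker of resident mouse microglia.

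The activating and inhibitory motifs can be read in the coding sequence of the annotated transcripts (GRCm38, GENCODE M21). They are shown because the sum of activating receptors against Fcgr2b is compared below. Tyrosine codons are in capitals, and the stretches run from coding base 193 to 237 of Fcer1g and from 949 to 966 of Fcgr2b. The spaced tyrosine pattern of an ITAM was sought only in the latter part of the protein, in 1 annotated transcript per gene. The search found 1 match in Fcer1g and 0 in each of the other 6 genes.
Fcer1g ITAM: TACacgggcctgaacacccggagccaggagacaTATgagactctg
Fcgr2b ITIM: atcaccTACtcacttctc

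Of the 7 genes, 4 lie together on mouse chromosome 1. Fcgr2b occupies chr1:170958617-170976547 on the reverse strand, Fcgr4 chr1:171018920-171029761 on the forward strand, Fcgr3 chr1:171051174-171064935 on the reverse strand, and Fcer1g chr1:171229572-171234365 on the reverse strand. Fcrls (chr3:87250758-87263738) and Fcgr1 (chr3:96282909-96293969) are on chromosome 3, both on the reverse strand. Fcgrt is at chr7:45092990-45103851, also on the reverse strand. The coding sequences of Fcgr2b and Fcgr3 were 83.3% identical over 784 aligned bases, while the other pairs among Fcgr1, Fcgr2b, Fcgr3 and Fcgr4 were 56.6% to 62.0% identical. Stretches of 100 bases shared with other genes made up 4.30% of those of Fcgr2b and 2.54% of those of Fcgr3, and 0 of those of the other 5 genes, so a small part of the Fcgr2b and Fcgr3 counts is uncertain. An antisense gene, Gm38204, overlapped 155 exon bases of Fcgr2b and had a count of 0 in every library.

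The promoter windows of the genes, which ran from 250 bases before to 50 bases after each RefSeq start (GRCm38.p6), were searched for a purine-rich motif, GAGGAAG, of the type bound by the myeloid factor PU.1. It was found on either strand in 4 of the 7 genes and in 13.6% of 32851 single windows of all genes. A gene can have several windows, so the count of genes and the share of windows are not alike. The match lay 144 bases before the start of Fcrls, 56 before that of Fcgr1 and 23 before that of Fcgr4. In Fcgr3 it lay 7 or 16 bases before the start, since RefSeq gives a pair of starts. The matched letters are in capitals below, in the direction of each gene, and CTTCCTC is the same motif read from the other strand. The stretches of Fcrls and Fcgr3 fall in introns of the longer GENCODE models, the other stretches before the gene.
Fcrls, chr3:87263642-87263677, reverse strand: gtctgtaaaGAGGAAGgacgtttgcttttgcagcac
Fcgr1, chr3:96293999-96294055, reverse strand: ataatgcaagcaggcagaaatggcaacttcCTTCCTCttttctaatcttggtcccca
Fcgr3, chr1:171059404-171059440, reverse strand: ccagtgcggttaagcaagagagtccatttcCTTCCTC
Fcgr4, chr1:171018873-171018919, forward strand: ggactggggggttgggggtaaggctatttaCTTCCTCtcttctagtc

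A STAT-type motif, TTCNNNGAA, matched only in Fcgr1 among the 7 genes, 109 bases before its start, and in 8.3% of all windows. An interferon response type motif, GAAA followed after any 2 bases by GAAA, matched only in Fcgr4, 73 bases before its start, and in 3.44% of all windows. These are matches of letters. They do not show that a factor was bound.

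The libraries held 59736771 to 86164159 counts, and the 7 genes had 114 to 6447 counts per library. UMBO replicate 2 stood apart from the rest. On the first principal component, which took 78.7% of the variance, it was at 133.7, and the other 4 libraries were between -68.4 and 17.0. Its summed neuronal markers were 2065 CPM (counts scaled to a common library size by TMM), against 4299 to 6983 in the other 4 libraries. Its summed proliferation markers were 367 CPM, against 23.5 to 83.3 in the others. Fold changes and medians without this library are therefore given beside those of the 7 genes and of the gene lists. Every pair of libraries differed by more than counting error (chi-square of 58.1 or more per gene). Of 23592 genes tested, 0 (0%) passed the threshold of 0.05 after Benjamini-Hochberg adjustment of edgeR's quasi-likelihood test, and 1738 (7.37%) had an unadjusted p under that value. These p-values measure the spread between single mice.

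Fcrls was about 3-fold higher with UMBO and was almost the same in both UMBO mice. The 3 vehicle libraries held 16.0, 16.9 and 17.4 CPM of Fcrls, and the 2 UMBO libraries held 51.3 and 50.4 CPM. The groups did not overlap, and the lower UMBO library was 2.90-fold above the highest vehicle library. The mean was 16.7 ± 0.730 CPM with vehicle (SD, n = 3) and 50.9 ± 0.570 CPM with UMBO (SD, n = 2). The log2 fold change was 1.60 (SE 0.15), and it stayed between 1.56 and 1.63 when each library was left out in turn. It was 1.62 without UMBO replicate 2. Among the 7 genes, Fcrls alone had its lower UMBO library at least 2-fold above every vehicle library, a pattern held by 62 of all genes tested (0.263%).

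**Figure D1:**
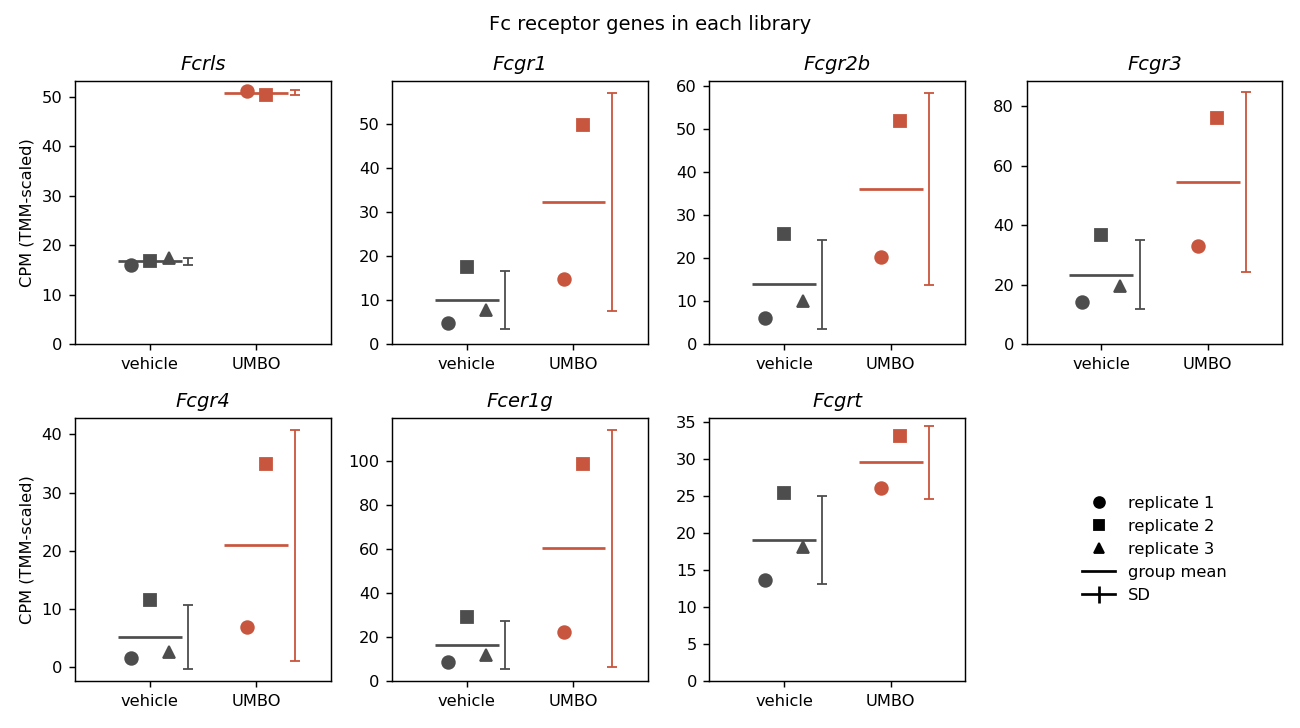
CPM of each Fc receptor gene in the 3 vehicle and 2 UMBO libraries, with symbols for single mice, horizontal lines for the group mean and bars for the SD. For Fcrls both UMBO libraries (51.3 and 50.4 CPM) lie above all vehicle libraries (16.0 to 17.4 CPM), whereas vehicle replicate 2 lies above UMBO replicate 1 for Fcgr1, Fcgr2b, Fcgr3, Fcgr4 and Fcer1g.

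The activating receptors were higher on average with UMBO, but their groups overlapped. Fcgr1, the high-affinity receptor for IgG, was at 4.88, 17.5 and 7.77 CPM in vehicle replicates 1, 2 and 3 and at 14.8 and 49.9 CPM in UMBO replicates 1 and 2. Vehicle replicate 2 was above UMBO replicate 1, and UMBO replicate 2 was 3.38-fold above UMBO replicate 1. The mean went from 10.0 ± 6.59 CPM (SD, n = 3) to 32.3 ± 24.8 CPM (SD, n = 2), a log2 fold change of 1.69 (SE 0.68) that fell to 0.56 without UMBO replicate 2.

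Fcgr3, a low-affinity activating receptor, was at 14.1, 36.6 and 19.5 CPM with vehicle and at 33.1 and 75.9 CPM with UMBO. Again vehicle replicate 2 was above UMBO replicate 1, here by 1.11-fold. The log2 fold change was 1.22 (SE 0.50), and 0.50 without UMBO replicate 2.

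Fcgr4, an activating receptor for IgG2a and IgG2b, had the lowest counts of the family in 4 of 5 libraries (in UMBO replicate 2 Fcgrt was lower) and the widest spread. It was at 1.52, 11.5 and 2.52 CPM with vehicle and at 6.90 and 35.0 CPM with UMBO. Both groups spread widely, by 7.54-fold among the vehicle libraries and by 5.07-fold between the UMBO libraries. The log2 fold change of 2.02 (SE 1.01) was the highest of the 7 genes, and it ranged from 0.41 without UMBO replicate 2 to 3.41 without vehicle replicate 2.

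Fcer1g, the gamma chain that these receptors share, followed the same order of libraries. It was at 8.30, 28.9 and 11.7 CPM with vehicle and at 22.0 and 98.4 CPM with UMBO. UMBO replicate 2 was 4.47-fold above UMBO replicate 1, which lay below vehicle replicate 2. The mean went from 16.3 ± 11.0 CPM (SD, n = 3) to 60.2 ± 54.0 CPM (SD, n = 2), with a log2 fold change of 1.89 (SE 0.75) that fell to 0.43 without UMBO replicate 2.

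Fcgr2b, the inhibitory receptor, did the same. It was at 6.20, 25.7 and 9.98 CPM with vehicle and at 20.2 and 51.9 CPM with UMBO. The groups overlapped, with vehicle replicate 2 at 1.27-fold the level of UMBO replicate 1. The log2 fold change was 1.37 (SE 0.67), and 0.53 without UMBO replicate 2.

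Fcgrt, the neonatal receptor, had the smallest difference of the 7 genes. Its levels were 13.6, 25.4 and 18.1 CPM with vehicle and 26.1 and 33.0 CPM with UMBO. The groups did not overlap, although the lower UMBO library was only 1.03-fold above the highest vehicle library. The mean was 19.0 ± 5.98 CPM with vehicle (SD, n = 3) and 29.6 ± 4.93 CPM with UMBO (SD, n = 2). The log2 fold change was 0.63 (SE 0.30), and 0.45 without UMBO replicate 2. Endothelial markers (6 genes) summed to 148, 195 and 205 CPM with vehicle and to 248 and 226 CPM with UMBO, and their part in the Fcgrt level was not tested.

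Across the family, 2 of 7 genes, Fcrls and Fcgrt, were higher in both UMBO libraries than in any vehicle library, against 11.5% of all genes tested. In the opposite direction, 11.4% of all genes had both UMBO libraries below every vehicle library. The other 5 genes were in the order UMBO replicate 2, vehicle replicate 2, UMBO replicate 1, then vehicle replicates 3 and 1, and 17% of all genes had vehicle replicate 2 between the UMBO libraries and replicates 1 and 3 below. UMBO replicate 2 was highest for 6 of the 7 genes and vehicle replicate 1 lowest for 7. The share of all genes with these ranks was not counted, so the ranks are not taken as a trait of the family. A log2 fold change of at least 1 was held by 6 of the 7 genes and by 11.4% of all genes. The median log2 fold change was 1.60 over the 7 genes, or 0.50 without UMBO replicate 2, and 0.01 over all genes tested. Since the contrast was used to choose the genes, nothing is read from these shares.

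**Figure D2:**
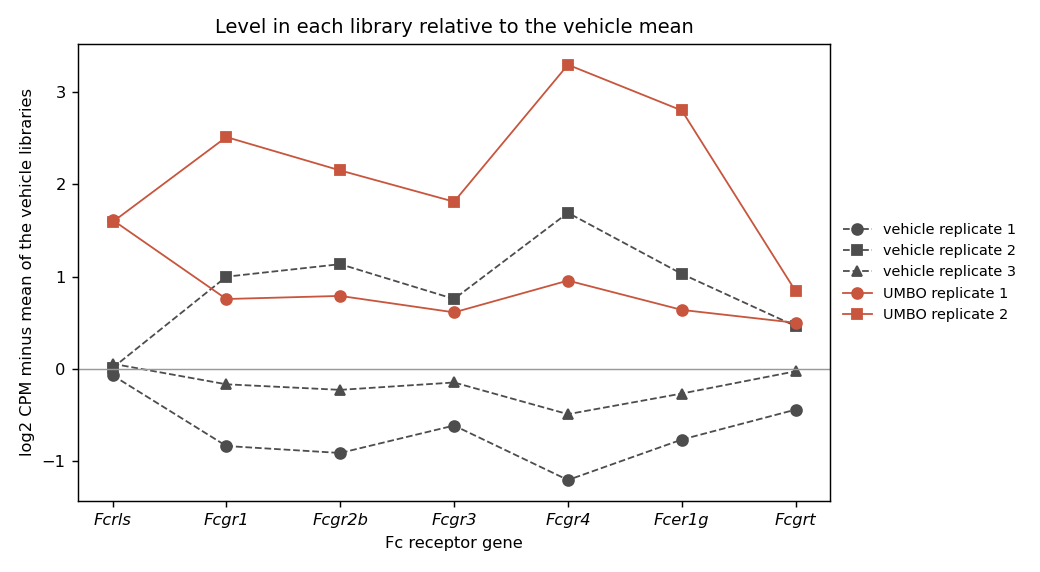
log2 CPM of each gene in each library minus the mean log2 CPM of the 3 vehicle libraries, with a line per library. The 5 lines come together within each group at Fcrls and spread apart for Fcgr1, Fcgr2b, Fcgr3, Fcgr4 and Fcer1g, with vehicle replicate 2 above UMBO replicate 1 in those 5 genes.

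Differences between the genes over the libraries can be given as a distance, which reflects the size of the changes as well as their pattern. After the log2 CPM of each gene was centered on its mean over the 5 libraries, the root-mean-square difference between Fcgr1 and Fcer1g was 0.15, the smallest of all pairs of the 7 genes. Between Fcgr1 and Fcgr2b it was 0.17. Fcrls was 0.54 from Fcgrt, its nearest of the 7, and 1.23 from Fcgr4, its farthest. Wide distances were not particular to Fcrls, since Fcgrt was 1.17 and Fcgr3 0.77 from Fcgr4.

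**Figure D3:**
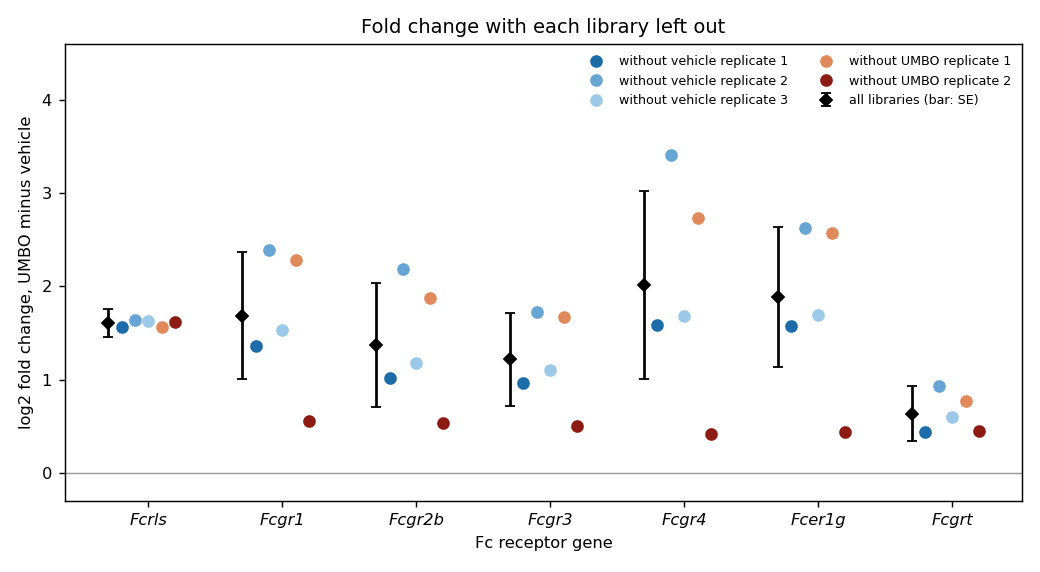
log2 fold change of UMBO over vehicle for each gene with all 5 libraries and with each library left out in turn. Fcrls stays between 1.56 and 1.63, while Fcgr4 spans 0.41 to 3.41 and Fcer1g 0.43 to 2.63, with the lowest values without UMBO replicate 2 and the highest without vehicle replicate 2.

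Markers of the cell types that can carry these receptors were read in the same libraries. Summed markers of monocytes and macrophages (8 genes, among them Ccr2, Lyz2 and Arg1) were at 19.7, 115 and 40.5 CPM with vehicle and at 84.2 and 432 CPM with UMBO, in the same order of libraries as Fcgr1, Fcgr2b, Fcgr3, Fcgr4 and Fcer1g. Of these 8 markers, 2 were higher in both UMBO libraries than in any vehicle library (11.5% of all genes). Summed microglia markers (7 genes) were at 273, 411 and 338 CPM with vehicle and at 530 and 646 CPM with UMBO, and 5 of the 7 were higher without overlap (11.5% of all genes). The other 2, P2ry12 and Sall1, were lower in UMBO replicate 2 than in every other library. P2ry12 was at 37.6, 31.9 and 42.8 CPM with vehicle and at 51.7 and 20.8 CPM with UMBO. Markers of border macrophages (6 genes), the cells of the meninges and perivascular spaces, summed to 10.2 to 15.8 CPM with vehicle and to 17.4 and 23.4 CPM with UMBO, with 3 of 6 higher without overlap, again beside 11.5% of all genes.

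Natural killer cells, mast cells and neutrophils also carry Fc receptors. Their markers had sums of 2.41 to 8.22 CPM with vehicle against 5.23 and 32.7 CPM with UMBO for natural killer cells, 0.214 to 0.445 against 1.19 and 2.15 CPM for mast cells, and 0.615 to 2.00 against 1.21 and 6.60 CPM for neutrophils. Markers of B cells, which carry Fcgr2b, summed to 1.30 to 3.15 CPM with vehicle and to 2.23 and 4.98 CPM with UMBO. Those of dendritic cells summed to 20.6 to 28.3 CPM with vehicle and to 20.9 and 15.0 CPM with UMBO. That sum was lowest in UMBO replicate 2, but 3 of the 5 markers had a positive log2 fold change (50.9% of all genes). The median of the 5 was 0.63, and 1 had both UMBO libraries below every vehicle library (11.4% of all genes). No marker of these lists was at 0 in every library, but only 4 of 8 neutrophil markers and 3 of 4 mast cell markers passed the filter on low counts. The part of cell numbers in the receptor levels was not tested. In bulk tissue, more cells of a type cannot be told apart from more RNA per cell.

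Fcrls was also set against single microglia markers, 6 of which are given here, within each library. Its ratio to Gpr34 was 1.11, 1.15 and 1.14 with vehicle and 1.88 and 2.65 with UMBO. Its ratio to Siglech was 0.868, 0.668 and 0.784 with vehicle and 1.89 and 1.94 with UMBO. Its ratio to Tmem119 was 0.704, 0.433 and 0.592 with vehicle and 1.15 and 0.839 with UMBO. In these ratios, and in those to P2ry12 and Sall1, both UMBO libraries were above every vehicle library. In the ratio to Olfml3 (0.630, 0.356 and 0.484 with vehicle, 0.727 and 0.577 with UMBO), the groups overlapped. Against Fcer1g it had no such order, with ratios of 1.92, 0.584 and 1.48 with vehicle and 2.33 and 0.512 with UMBO.

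The balance of activating and inhibitory receptors was compared as the summed CPM of Fcgr1, Fcgr3 and Fcgr4 over the CPM of Fcgr2b. It was 3.31, 2.55 and 2.99 with vehicle and 2.71 and 3.10 with UMBO. The groups overlapped, and their means, 2.95 ± 0.380 (SD, n = 3) and 2.90 ± 0.276 (SD, n = 2), differed by less than the spread within either group. The difference, UMBO minus vehicle, was -0.048 and changed sign when single libraries were left out, to 0.13 (vehicle replicate 1) or 0.15 (UMBO replicate 1).

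The make-up of the activating receptors differed between libraries, and the groups overlapped. Fcgr4 over Fcgr3 was 0.108, 0.314 and 0.129 with vehicle and 0.209 and 0.461 with UMBO. Fcgr1 over Fcgr3 was 0.345, 0.477 and 0.398 with vehicle and 0.446 and 0.656 with UMBO. In both ratios vehicle replicate 2 was above UMBO replicate 1. The gamma chain over the 3 receptors it serves, as Fcer1g over the sum of Fcgr1, Fcgr3 and Fcgr4, was between 0.394 and 0.440 in 4 libraries and 0.612 in UMBO replicate 2.

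Levels of different genes were compared as CPM per kb of merged exons. On this length Fcer1g was the highest of the 7 genes and Fcgr2b the lowest in all 5 libraries. With vehicle the order by mean was Fcer1g (18.6 ± 12.6), Fcgr3 (13.5 ± 6.75), Fcgrt (9.06 ± 2.85), Fcrls (7.17 ± 0.313), Fcgr4 (4.12 ± 4.37), Fcgr1 (3.88 ± 2.54) and Fcgr2b (2.41 ± 1.78 CPM per kb, SD, n = 3). The ranges of the vehicle libraries overlapped for every pair of neighbors in this order. Within single libraries, Fcer1g was above Fcgr3, Fcgr3 above Fcgrt and Fcgr1 above Fcgr2b in 5 of 5, but Fcgrt was above Fcrls in only 2 of 5 and Fcgr4 above Fcgr1 in 2 of 5.

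With UMBO the levels were 68.9 ± 61.8 CPM per kb for Fcer1g, 31.4 ± 17.5 for Fcgr3, 21.8 ± 0.244 for Fcrls, 16.7 ± 15.8 for Fcgr4, 14.1 ± 2.35 for Fcgrt, 12.5 ± 9.58 for Fcgr1 and 6.23 ± 3.87 for Fcgr2b (SD, n = 2). Fcrls ranked 2 of 7 in UMBO replicate 1 and 4 in UMBO replicate 2. Of the summed CPM per kb of the 7 genes, Fcrls took 19.5%, 7.70% and 15.7% with vehicle and 23.5% and 8.65% with UMBO. Its share was lowest in the libraries where the receptors of the gamma chain were highest, vehicle replicate 2 and UMBO replicate 2. The level of Fcgr2b depends on the length used, since its merged exons span 5790 bases and its longest transcript 3544. Its median over the 5 libraries was 3.49 CPM per kb with the first and 5.71 with the second. With the longest transcript of each gene, Fcer1g was still highest in all 5 libraries, but Fcgr2b was lowest only in UMBO replicate 2, and Fcgr1 was above Fcgr2b in 3 of 5 libraries in place of 5. By that length Fcrls ranked 3 in UMBO replicate 1, below Fcgr3.

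**Figure D4:**
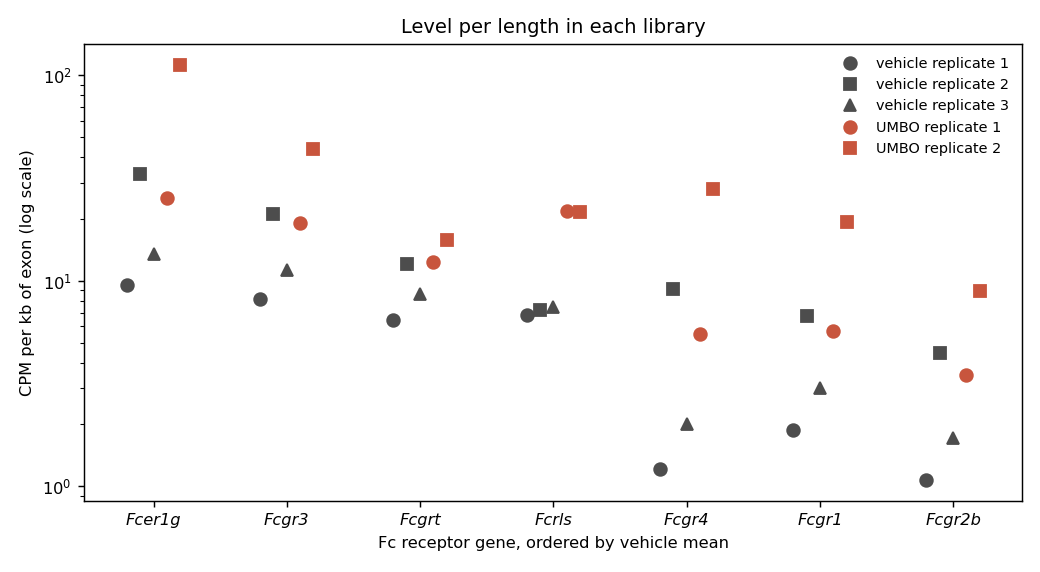
CPM per kb of merged exons of the 7 genes in each library, on a log axis. On this length Fcer1g is the highest gene and Fcgr2b the lowest in all 5 libraries (with the longest transcript Fcgr2b is lowest in 1), and Fcrls goes from 6.84 to 7.45 CPM per kb with vehicle to 21.6 and 22.0 with UMBO.

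Genes with the most similar pattern over the 5 libraries were sought for Fcrls, Fcer1g and Fcgrt among all genes tested, by the same distance. The closest to Fcrls were Gm24362 (0.16), Acaa1b (0.17) and Rhbdl2 (0.21). These genes were at far lower levels, and Gm24362 had no more than 0.168 CPM in any library. The closest to Fcer1g were Ncf4 (0.04), a subunit of the phagocyte NADPH oxidase, Anxa2 (0.07) and Serpina3i (0.07). Serpina3i had no more than 1.13 CPM in any library. For Ncf4 the levels were 1.11, 4.18 and 1.64 CPM with vehicle and 3.18 and 13.8 CPM with UMBO. The closest to Fcgrt were 7530428D23Rik (0.05), Npb (0.05) and Gm19412 (0.06). They too were at far lower levels, with no more than 0.336, 0.611 and 4.11 CPM in any library. These distances are over 5 libraries and carry no test.

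Other genes of Fc receptor biology were read from 5 lists with 67 genes, of which 59 were tested. In edgeR's quasi-likelihood test with Benjamini-Hochberg adjustment, 0 of the 59 passed in either direction, with adjusted p-values of 0.497 or more. The signaling genes downstream of an ITAM had a positive log2 fold change in 14 of 20 (50.9% of all genes) and a median of 0.81, or 0.46 without UMBO replicate 2. Both UMBO libraries were above every vehicle library for 8 of the 20, against 11.5% of all genes. Lyn, the kinase that phosphorylates the ITAM, was at 10.6, 20.4 and 14.0 CPM with vehicle and at 25.4 and 42.6 CPM with UMBO, with a log2 fold change of 1.18 (SE 0.35). The groups did not overlap for Lyn, nor for the adaptor Blnk (1.07, SE 0.34), the kinase Tec (1.04, SE 0.36) and the exchange factor Vav1 (1.43, SE 0.52). For Vav1 the margin was small, with UMBO replicate 1 at 13.2 CPM and vehicle replicate 2 at 12.9 CPM.

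Inhibitory signaling genes had a positive log2 fold change in 8 of 10 (50.9% of all genes) and a median of 0.52, or 0.19 without UMBO replicate 2. For 3 of the 10, both UMBO libraries were above every vehicle library (11.5% of all genes). Inpp5d, the lipid phosphatase that acts with Fcgr2b, was at 19.6, 28.0 and 21.8 CPM with vehicle and at 31.1 and 47.5 CPM with UMBO, without overlap. Its log2 fold change was 0.77 (SE 0.26). The groups overlapped for the phosphatase Ptpn6 (1.57, SE 0.59), the adaptor Dok1 (1.31, SE 0.55) and the kinase Csk (0.63, SE 0.28).

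Phagocytosis and oxidase genes had a positive log2 fold change in 13 of 15 (50.9% of all genes). Their median was 1.06, or 0.43 without UMBO replicate 2. For 4 of the 15, both UMBO libraries were above every vehicle library (11.5% of all genes). Ncf1, the organizer subunit of the NADPH oxidase, was at 9.82, 22.5 and 13.5 CPM with vehicle and at 26.4 and 46.3 CPM with UMBO, with a log2 fold change of 1.25 (SE 0.41). Dock2, an activator of Rac, also did not overlap (0.84, SE 0.32), whereas the actin regulator Arpc1b (1.98, SE 0.74) did. Both UMBO libraries were below every vehicle library for Elmo1, which was named after its values were seen. Its levels were 153, 124 and 131 CPM with vehicle and 113 and 73.9 CPM with UMBO.

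The partners of Fcer1g and other ITAM adaptors had a positive log2 fold change in 6 of 7 tested (50.9% of all genes). Their median was 1.88, which was 0.21 without UMBO replicate 2. For 2 of the 7, both UMBO libraries were above every vehicle library (11.5% of all genes). Tyrobp, the adaptor of Trem2 and other microglial receptors, was at 10.6, 34.3 and 14.4 CPM with vehicle and at 35.6 and 102 CPM with UMBO, with a log2 fold change of 1.80 (SE 0.63). UMBO replicate 1 was just above vehicle replicate 2 for Tyrobp, while for Fcer1g it was below. Clec4e and Clec4d, lectin receptors that signal through Fcer1g, came almost wholly from UMBO replicate 2. Clec4e had 5, 12 and 5 counts with vehicle and 6 and 178 with UMBO. Clec4d had 1, 16 and 3 counts with vehicle and 5 and 357 with UMBO. Ncr1, a receptor of natural killer cells, had 4, 11 and 6 counts with vehicle and 20 and 31 with UMBO.

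The other Fc receptors had a positive log2 fold change in 7 of 7 tested (50.9% of all genes) and a median of 0.86. Without UMBO replicate 2 the median was 0.28, over the 8 genes that then passed the filter. For 1 of the 7, Fcer1a, both UMBO libraries were above every vehicle library (11.5% of all genes). Fcer1a, the chain of the IgE receptor that binds antibody, had 4, 0 and 0 counts with vehicle and 11 and 9 with UMBO, which is few reads. B2m, the partner chain of Fcgrt, was at 180, 722 and 270 CPM with vehicle and at 388 and 1385 CPM with UMBO. The groups overlapped for B2m (log2 fold change 1.18, SE 0.75), for Trim21, the cytosolic antibody receptor (0.86, SE 0.53), and for Fcrl1, a B cell receptor-like gene (0.64, SE 0.44). Fcgrt over B2m was 0.0755, 0.0352 and 0.0671 with vehicle and 0.0671 and 0.0239 with UMBO, lowest in UMBO replicate 2 and vehicle replicate 2.

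**Figure D5:**
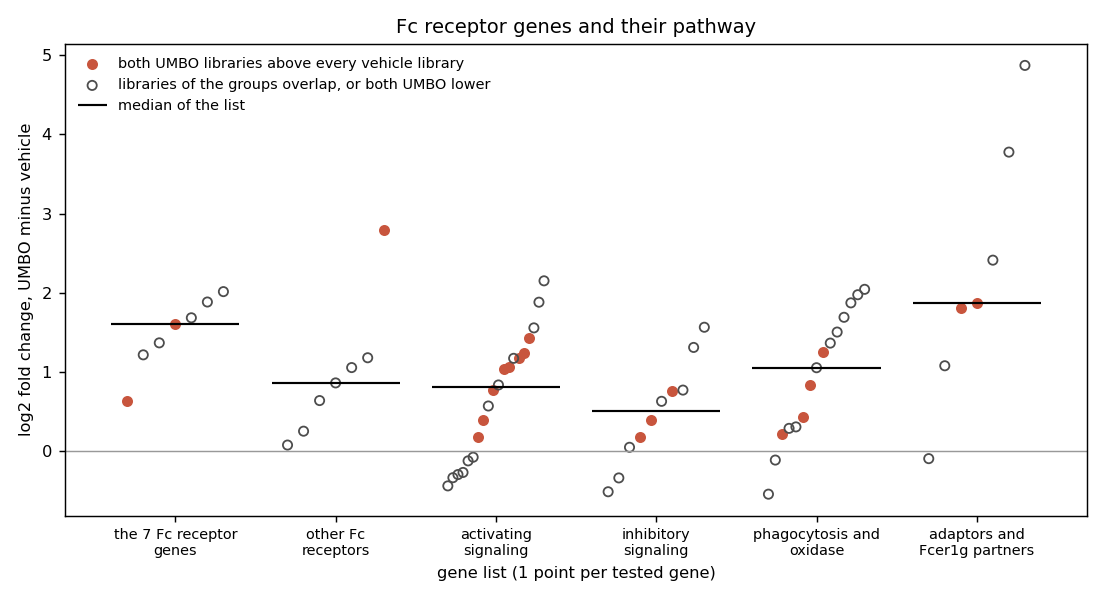
log2 fold change of UMBO over vehicle for each tested gene of the Fc receptor genes and of the 5 lists, with the median of each. The medians are 1.60 for the 7 Fc receptor genes, 0.86 for other Fc receptors, 0.81 for activating signaling, 0.52 for inhibitory signaling, 1.06 for phagocytosis and oxidase, and 1.88 for adaptors and partners of Fcer1g.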

How the data were processed

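The authors deposited raw counts per gene for each library, made from SMARTer mRNA-Seq libraries of right hemisphere RNA. Reads were mapped to GRCm38 and counted per gene with STAR 2.7.2a; the annotation release and strand setting are not given in the sources used here. Groups came from the treatment label. The study gives 3 mice per group, and 1 UMBO library was not analysed here.

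From the counts, genes were filtered with filterByExpr, scaled by TMM and tested with edgeR 4.0.16 (quasi-likelihood, Benjamini-Hochberg over 23592 genes, threshold 0.05). CPM were TMM-scaled, log2 CPM used a prior count of 2, and values per kb used GENCODE M21 exons. Rows with no gene symbol held at most 0.00173% of the counts. Promoters and starts were those of RefSeq, and all 7 genes had a window.

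The Fc receptor genes, pathway lists and markers were chosen with earlier results of these data known. Named genes were the 7 Fc receptor genes, the 4 of each list with the smallest p, and the 3 closest in pattern to Fcrls, Fcer1g and Fcgrt. Some named genes and ratios are not reported here. The edgeR script was tested on simulated data. Alternatives were other size factors, filters, DESeq2 1.42.0, a replicate block and leaving out each library.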

Additional observations from a re-analysis of the deposited data

How the results depend on the processing

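The log2 fold change of all 7 Fc receptor genes was above 0 under every alternative run. The alternatives rework the same libraries, and the genes were chosen with the contrast known. How many of all genes keep their sign in this way was not counted, so the kept sign is not taken as a trait of the family. Leaving out each library in turn gave ranges of 0.50 to 2.19 for their median, 0.28 to 1.21 for other Fc receptors, 0.46 to 1.11 for activating signaling, 0.19 to 0.75 for inhibitory signaling, 0.43 to 1.47 for phagocytosis and oxidase and 0.21 to 2.49 for adaptors and partners. The lowest value of each was that without UMBO replicate 2. The filter on low counts was run again each time, so the other Fc receptors held 5 to 8 genes and the adaptors and partners 5 to 7. The number of the 7 genes that were higher with UMBO and free of overlap between groups ranged from 2 to 7. It was 7 without vehicle replicate 2 or without UMBO replicate 1, where only a lone UMBO library is compared. How many of all genes show this pattern after such an omission was not counted, so the rise to 7 is not taken as a trait of the family. The difference in the activating to inhibitory ratio, -0.048 with all libraries, ranged from -0.25 to 0.15, and turned positive without vehicle replicate 1 (0.13) or UMBO replicate 1 (0.15).

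Genes past the adjusted threshold numbered 0 in edgeR with 1738 at an unadjusted p under 0.05, 40 in DESeq2 with 2738, and 2337 with the replicate block with 6134. The labels do not say that mice with the same number shared a litter or day, so the numbers were not taken to pair the mice. The block left the median of the 7 genes at 1.55, and the same-numbered mice deviated together with correlations of 0.453 and 0.76 over genes, which with 2 UMBO libraries are fixed in part by construction. Leaving out each library gave 0 to 4543 genes, the highest without UMBO replicate 1, where the lone UMBO mouse is assumed to vary like the vehicle mice. The cause of these differences was not tested.

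Scaling by library size alone moved the median of all genes to 0.13 and the log2 fold change of Fcrls to 1.72. With 2 UMBO mice, 1 of them apart from the rest, the data limit every group difference given here.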
